A study of Mus musculus with 42 samples.

Results

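The choroid plexus epithelium genes were followed through 42 Affymetrix mouse arrays. They are 10 genes named as markers of the epithelium, namely Ttr, Clic6, Kcnj13, Folr1, Kl, Aqp1, Enpp2, Otx2, Slc4a5 and Sostdc1, and every probe set annotated to one of them was taken. Of the 10 genes, 9 had such a probe set, 15 probe sets in all, among 18193 genes measured. Enpp2, which encodes autotaxin, was not analysed here because the annotation used names no probe set for it. Where a gene had several probe sets, the one with the highest mean over the 42 arrays represented it.

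The choroid plexus is a sheet of epithelium around a vascular core that hangs into the brain ventricles. Its cells secrete cerebrospinal fluid and move ions, water, vitamins and hormones between blood and fluid. In the telencephalon it forms at the dorsal midline, beside the cortical hem and the future hippocampus. Transthyretin (Ttr) carries thyroid hormone and is made in large amounts by these cells. Kcnj13, Aqp1 and Slc4a5 encode a potassium channel, a water channel and a sodium bicarbonate cotransporter of the epithelium. Folr1 encodes a folate receptor that passes folate into the fluid, and Kl encodes Klotho, a co-receptor for a fibroblast growth factor. Otx2 is a homeodomain transcription factor needed for the plexus to form. Clic6 belongs to the chloride intracellular channel family, and Sostdc1 encodes a secreted inhibitor of bone morphogenetic protein signaling.

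RNA had been taken from 4 systems of C57BL/6 congenic Fmr1KO mice (KO) and WT mice, all untreated. Fmr1 encodes FMRP, the RNA-binding protein lost in fragile X syndrome. The systems were hippocampal culture, primary hippocampus, cortical culture and primary cortex. Primary stands for tissue taken from embryos 17 to 18 days post conception. Cultures came from embryos of the same age and spent 14 days in vitro. Primary hippocampus had 6 arrays of either genotype, and the other systems had 5. Each array held RNA pooled from littermates and carried a mouse ID. The same IDs recurred in all 4 systems, except KO 4237 and WT 3104, which were in primary hippocampus alone. Where values are given array by array, they follow the order of the IDs (KO 2037, 2038, 2221, 2620, 4236 and 4237, and WT 2236, 2643, 2644, 3104, 3569 and NT).

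Values are log2 signals normalized by RMA. A probe set was called above background when its group mean passed 5.16, the 95th percentile of 123 probe sets for genes silent in brain. Array medians lay between 5.40 and 5.56. Fmr1 itself was lower in KO by 0.90 to 0.99 log2 units, with no overlap between genotypes within any system. Neuronal markers were above background in every system, 10 of 10. As a check of region, 6 of 6 hippocampal identity genes were higher in primary hippocampus than in primary cortex (19.7% of all genes). In such bulk samples, fewer cells of a type and less RNA per cell cannot be told apart. A few arrays stood apart for these genes: WT 2236 of primary hippocampus, WT 2644 and WT NT of primary cortex, and KO 4236 of hippocampal culture.

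Promoter sequence from RefSeq (GRCm38.p6) was at hand for 5 of the 10 genes: Kcnj13, Kl, Aqp1, Otx2 and Slc4a5. The 250 bases before the start of transcription were searched for TAATCC, the core motif of OTX proteins, and its complement GGATTA. Among 32851 promoters, 6.25% held either form. Of the 8 windows of these genes 1 did, that of start site 3 among 4 of Otx2. That window and those of Kcnj13 and Aqp1, the genes with an entry that differed between KO and WT in primary hippocampus, are shown with the motif in capitals. They lie at chr14:48665110-48665359 (minus strand), chr1:87394730-87394979 (minus strand) and chr6:55336049-55336298 (plus strand). The windows of Kcnj13 and Aqp1 are all in lower case, that is, these letters were not found in them.
Otx2, start site 3: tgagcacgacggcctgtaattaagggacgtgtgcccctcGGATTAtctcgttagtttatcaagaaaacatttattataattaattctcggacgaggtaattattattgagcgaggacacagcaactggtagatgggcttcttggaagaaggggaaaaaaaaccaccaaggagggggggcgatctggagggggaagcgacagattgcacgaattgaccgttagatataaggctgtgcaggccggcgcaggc
Kcnj13: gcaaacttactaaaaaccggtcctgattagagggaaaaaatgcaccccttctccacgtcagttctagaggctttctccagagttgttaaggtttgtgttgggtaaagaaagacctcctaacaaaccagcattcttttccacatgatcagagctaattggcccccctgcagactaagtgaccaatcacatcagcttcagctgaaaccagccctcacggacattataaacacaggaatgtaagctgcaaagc
Aqp1: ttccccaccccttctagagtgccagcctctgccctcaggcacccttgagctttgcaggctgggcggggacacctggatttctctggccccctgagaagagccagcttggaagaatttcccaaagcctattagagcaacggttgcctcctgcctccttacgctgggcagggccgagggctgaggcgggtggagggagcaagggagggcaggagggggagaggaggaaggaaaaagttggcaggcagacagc

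The 9 genes differed in whether they passed background. Ttr read 10.44 to 13.74 in primary hippocampus and 8.54 to 11.05 in hippocampal culture, all above background. In cortical culture its main probe set lay between 3.80 and 4.75, below background on all 10 arrays. A second Ttr probe set read 5.35 to 6.20 on these cultures, above background on all 10, and the other 2 Ttr probe sets were below it on all 10. Clic6, Folr1, Sostdc1, Otx2 and Kcnj13 had means above background in at least one group. Aqp1 passed background on 1 array, WT 2236 of primary hippocampus (6.45), and its group means ran between 4.12 and 5.06. Kl (3.36 to 4.10) and Slc4a5 (3.47 to 4.40) were below background on every array, and the arrays give no level for them.

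**Figure D1:**
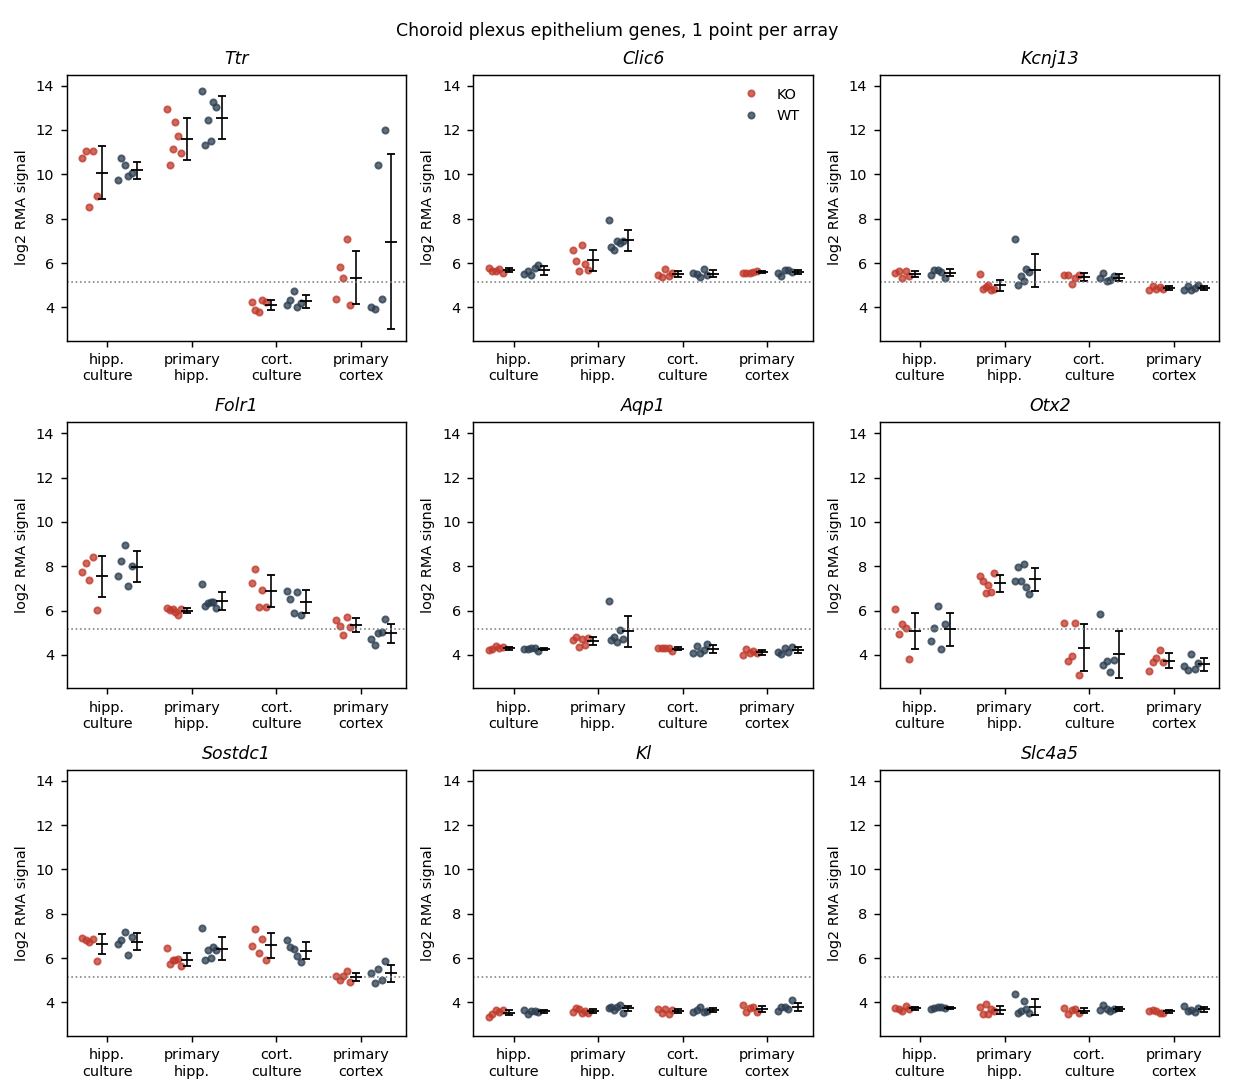
Signal (log2 RMA) of each gene's main probe set on every array, by system, KO in red left of WT in dark blue; black bars are mean ± SD and the dotted line is background at 5.16. Ttr and Otx2 show the widest range between systems, while Kl and Slc4a5 stay below the line throughout.

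KO was set against WT in each system to ask which of these genes depended on the Fmr1 genotype. In primary hippocampus, Clic6, Kcnj13, Aqp1 and Sostdc1 were lower in KO, and none of the 9 genes was higher. All 9 differences were negative, with a median of -0.43, against -0.003 over all genes. For 3 of the 9, Aqp1, Kl and Slc4a5, both means were below background, and the median is the value of Aqp1. The 9 genes were read on the same arrays, so their signs are not independent. At an unadjusted p under 0.05, the threshold the study used, 4 of 9 genes were lower and 0 higher, where 0.945% of all 18193 genes were lower and 0.594% higher (1.54% in either direction). At a Benjamini-Hochberg adjusted p under 0.05, 1 of the 9 was called, and 0.0165% of all genes.

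Clic6 carried the clearest difference. Its signals were 6.59, 6.07, 5.66, 6.80, 5.97 and 5.67 in KO hippocampi, against 7.94, 6.72, 6.58, 6.98, 6.89 and 6.98 in WT hippocampi. Of the 6 KO arrays, 4 lay below every WT array, and KO 2037 and 2620 fell among them. The means were 6.13 ± 0.48 in KO and 7.02 ± 0.48 in WT (SD), a log2 difference of -0.89 (SE 0.16, adjusted p = 0.0213 by limma). That is a 1.85-fold lower signal in KO. A second Clic6 probe set differed by -1.07 (SE 0.22, adjusted p = 0.157). The adjusted call of Clic6 was lost when one of 7 of the 12 arrays was left out (adjusted p up to 0.164), in a fit of primary hippocampus alone (adjusted p = 1) and under array weights (-0.81, adjusted p = 0.0567). Its unadjusted p stayed under the threshold each time. The SE of the main fit is pooled over all systems, and in the other systems the SD of Clic6 within a group was 0.03 to 0.19.

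The other 3 genes called were the potassium channel, the water channel and the secreted inhibitor. Kcnj13 read 5.51, 4.84, 4.93, 5.0, 4.79 and 4.84 in KO hippocampi, against 7.08, 4.99, 5.39, 5.19, 5.73 and 5.61 in WT hippocampi. All KO arrays but 2037 were below background, and all WT arrays but 2643 were above it. The difference was -0.68 (SE 0.18, adjusted p = 1). This SE is pooled over all systems. The SD of Kcnj13 was 0.27 in KO and 0.74 in WT hippocampi, against 0.08 to 0.18 in the groups of the other systems. Aqp1 gave 4.37 to 4.81 in KO and 4.57 to 6.45 in WT, a difference of -0.43 (SE 0.16, adjusted p = 1), with both means below background. Its SD was 0.71 in WT hippocampi, against 0.05 to 0.18 in the groups of the other systems that share the pooled SE. In a fit of primary hippocampus alone Aqp1 was not called. Sostdc1 gave 6.44, 5.75, 5.91, 5.89, 5.96 and 5.63 in KO, against 7.37, 5.90, 6.34, 6.00, 6.52 and 6.36 in WT and a difference of -0.49 (SE 0.23, adjusted p = 1). The call of Sostdc1 was lost when any of 6 of the 12 arrays was left out (KO 2038, 2221, 2620 or 4237, or WT 2236 or 3569). KO and WT arrays overlapped for all 9 genes, where 0.126% of all genes did not overlap.

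One array stood apart. WT 2236 was the highest of the 12 arrays of primary hippocampus for 7 of the 9 genes, including Ttr, Folr1 and Slc4a5, though not for Otx2 or Kl. Without it, 2 of 9 genes were called lower (1.15% of all genes): Clic6 at -0.71 and Kcnj13 at -0.40. Aqp1 (-0.16) and Sostdc1 (-0.30) were not called. The median of the 9 differences was then -0.28. The mean log2 signal of 33 other choroid plexus genes was also highest on WT 2236, at 5.92 against 5.44 to 5.75 on the other 11 arrays. That of 10 neuronal markers was 10.35 on it, within the 10.05 to 10.62 of the rest. The part of these lists in the differences was not tested.

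The 5 genes of primary hippocampus that did not pass included Ttr. Ttr was 12.96, 10.44, 11.14, 12.37, 11.72 and 10.96 in KO hippocampi, against 13.74, 11.32, 12.46, 11.52, 13.28 and 13.01 in WT hippocampi. Its means were 11.60 ± 0.94 in KO and 12.55 ± 0.97 in WT (SD), a difference of -0.95 (SE 0.86, adjusted p = 1). The difference was about as large as the SD within a genotype. The SE is pooled over all systems, among them primary cortex WT, where the SD of Ttr was 3.94. The 4 Ttr probe sets gave -0.93 to -1.13. Folr1 differed by -0.43 (SE 0.31), and by -0.28 without WT 2236, with 5 of 6 KO arrays below every WT array. In a fit of primary hippocampus alone, Folr1 was called at the unadjusted threshold. Otx2, the transcription factor of the group, differed by -0.19 (SE 0.39), and no KO array lay below every WT array.

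**Figure D2:**
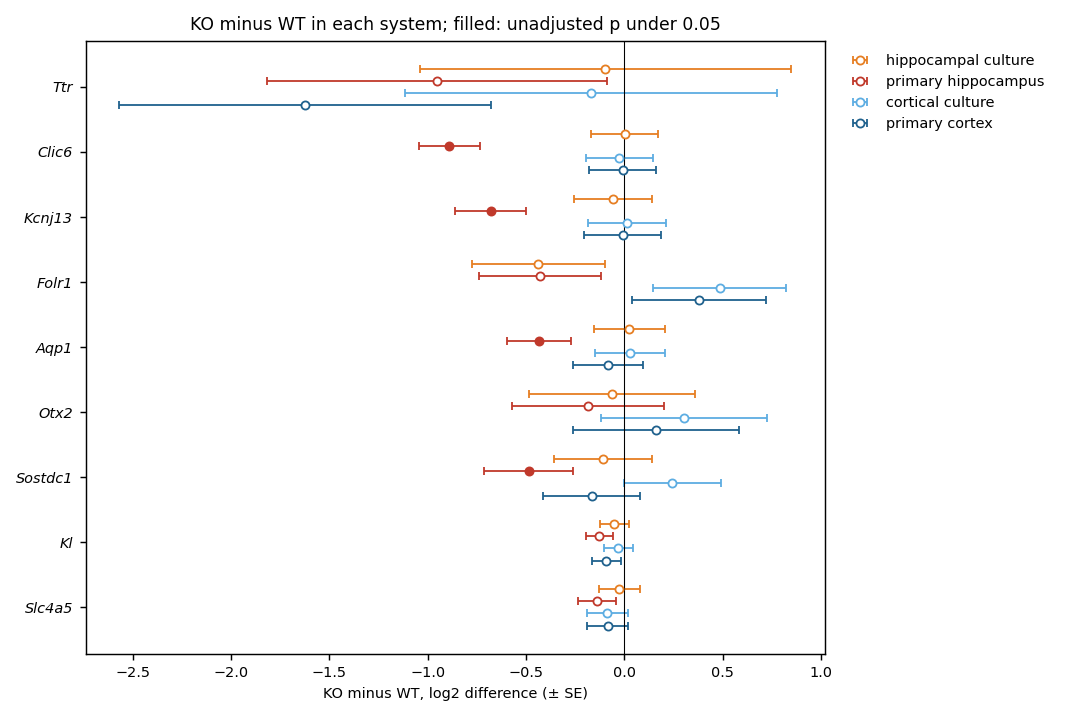
KO minus WT (log2, ± SE) for each gene in the 4 systems; filled points passed an unadjusted p under 0.05. Only points of primary hippocampus are filled, from -0.43 for Aqp1 to -0.89 for Clic6.

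In the other 3 systems none of the 9 genes passed, at an unadjusted p under 0.05 or after adjustment. Of all genes, 9.54% passed the unadjusted threshold in hippocampal culture, 10.2% in cortical culture and 1.66% in primary cortex, and 0.0055% passed after adjustment in each. The median difference of the 9 genes was -0.06 in hippocampal culture, 0.01 in cortical culture and -0.08 in primary cortex. Ttr in hippocampal culture was 10.73, 11.05, 8.54, 11.04 and 9.04 in KO, against 9.76, 10.72, 10.42, 9.93 and 10.04 in WT. The 5 KO cultures spread over a wider range than the WT cultures (SD 1.20 in KO and 0.39 in WT), a difference in spread that was not tested. Folr1 differed by -0.44 (SE 0.34) in hippocampal culture and by 0.48 (SE 0.34) in cortical culture, neither past the threshold. With each array left out these ran from -0.66 to -0.06 (-0.06 without KO 4236) and from 0.23 to 0.66 (0.23 without KO 2038).

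The KO difference was also compared between systems. For Clic6, the difference in primary hippocampus minus that in primary cortex was -0.88 (SE 0.23), and minus that in hippocampal culture it was -0.89 (SE 0.23). For Kcnj13 the same comparisons gave -0.67 (SE 0.27) and -0.62 (SE 0.27), or -0.39 and -0.34 without WT 2236 of primary hippocampus. These 2 of 9 genes passed an unadjusted p under 0.05 in limma, where 1.46% of all genes did against primary cortex and 4.58% against hippocampal culture. After adjustment 0 of 9 genes were called in either comparison, and 0% of all genes. The second Clic6 probe set was below background on every array of primary cortex and hippocampal culture. The main one had group means of 5.59 to 5.67 there, above background but below 5.87, the 99th percentile of the silent probe sets. Kcnj13 was below background in primary cortex (means 4.87 in KO and 4.88 in WT) and above it in hippocampal culture. Below background a lower KO level cannot be seen. The second Clic6 probe set, and Kcnj13 against primary cortex, thus cannot tell whether the KO difference depended on the system. The main Clic6 probe set lay near background there, so its comparisons do not settle this either.

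In primary cortex, single arrays stood far apart for Ttr. It was 4.38, 5.83, 5.33, 7.07 and 4.08 in KO cortices, against 4.02, 3.94, 10.43, 4.38 and 12.02 in WT cortices. The 10.43 belongs to WT 2644 and the 12.02 to WT NT, against 10.44 to 13.74 in primary hippocampus, and the other 3 WT arrays lay below background on this probe set. On the second Ttr probe set all 5 WT cortices were above it, at 5.43 or more. The difference of -1.62 (SE 0.94, adjusted p = 1) rested on those 2 arrays. Without both it was 1.22, so that KO was higher, which passed the unadjusted threshold (adjusted p = 1). Those arrays were picked for their high Ttr, so this call is a description and not a test. WT NT was also the highest of the 10 cortex arrays for Kcnj13 (4.99), Kl (4.10), Aqp1 (4.37) and Sostdc1 (5.86). The second probe set of Clic6, which read 3.23 to 3.60 on the remaining cortex arrays, gave 4.11 on WT 2644 and 4.64 on WT NT, where primary hippocampus had 5.40 or more. Otx2 gave 4.05 and 3.66 on them, against 6.75 or more in primary hippocampus. The mean log2 signal of the 33 other choroid plexus genes was 5.24 on WT 2644 and 5.29 on WT NT, against 5.07 to 5.20 on the remaining cortex arrays. That of 21 markers of meninges and fibroblasts was also highest on WT NT, at 5.25 against 4.95 to 5.09 on the other 9. The part of these lists in the Ttr values was not tested.

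**Figure D3:**
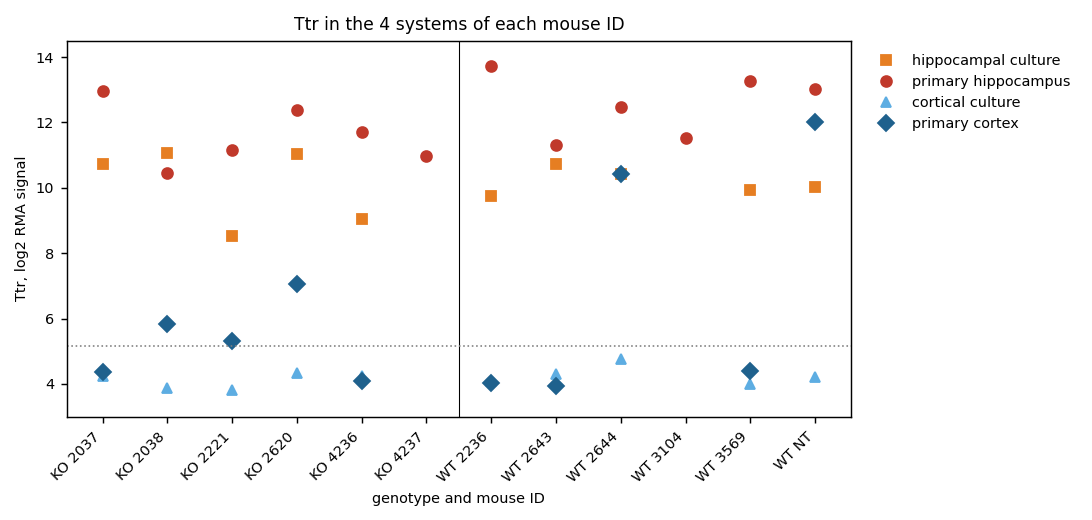
Signal (log2 RMA) of the main Ttr probe set for each mouse ID, KO left of WT, with 1 symbol per system and background dotted at 5.16. In primary cortex, WT 2644 and WT NT reach 10.43 and 12.02 and KO 2620 reaches 7.07, while every cortical culture lies below the dotted line on this probe set.

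Hippocampus was compared with cortex to see where in the embryonic forebrain these genes were found. In tissue, 7 of 9 genes were higher in hippocampus and none was lower, where 19.7% of all genes were higher and 16.7% lower (adjusted p under 0.05). The median difference of the 9 was 0.93, against -0.01 over all genes. Ttr averaged 12.08 ± 1.04 in primary hippocampus and 6.15 ± 2.87 in primary cortex (SD), a log2 difference of 5.93 (SE 0.64, adjusted p = 1.12e-09), or 60.9-fold, with 5 of the 10 cortices below background. Without WT 2644 and NT of primary cortex it was 7.35. The second Ttr probe set gave 3.93 (SE 0.43), so the size depended on the probe set. Otx2 ran from 6.75 to 8.10 in primary hippocampus and from 3.26 to 4.20 in primary cortex, all below background there. The difference was 3.67 (SE 0.29, adjusted p = 2.49e-13), with no measured level in cortex and so no fold.

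The remaining 5 were called at smaller sizes. Folr1 was higher in primary hippocampus by 1.06 (SE 0.23), Clic6 by 0.98 (SE 0.12), Sostdc1 by 0.93 (SE 0.17), Aqp1 by 0.68 (SE 0.12) and Kcnj13 by 0.45 (SE 0.13, adjusted p = 0.00749). The second Clic6 probe set gave 3.03 (SE 0.16), so the size for this gene depended on the probe set. Folr1, Aqp1 and Otx2 did not overlap between the 12 hippocampal and the 10 cortical arrays, 3 of 9 genes, where 13.3% of all genes did not. For Aqp1 both regions were below background. At 2-fold or more, 3 genes were called (3.89% of all genes): Ttr, Otx2 and Folr1.

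In culture the same comparison called 3 of 9 genes higher in hippocampal cultures, Ttr, Folr1 and Otx2, and none lower (14.7% of all genes higher, 13.5% lower). Ttr was 10.13 ± 0.84 in hippocampal culture and 4.19 ± 0.27 in cortical culture (SD), a difference of 5.94 (SE 0.67, adjusted p = 5.66e-09), with no overlap among 20 arrays (2.98% of all genes did not overlap). The cortical side was below background on this probe set, and the second Ttr probe set gave 2.63 (SE 0.45). Folr1 was higher by 1.13 (SE 0.24, adjusted p = 0.000389), and 5 of 10 hippocampal cultures lay above every cortical culture. Otx2 was higher by 0.94 (SE 0.30, adjusted p = 0.0173), but both means were below background. In a fit of the cultures alone its adjusted p was 0.0947. Clic6 (0.16), Kcnj13 (0.19) and Sostdc1 (0.24) were not called.

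**Figure D4:**
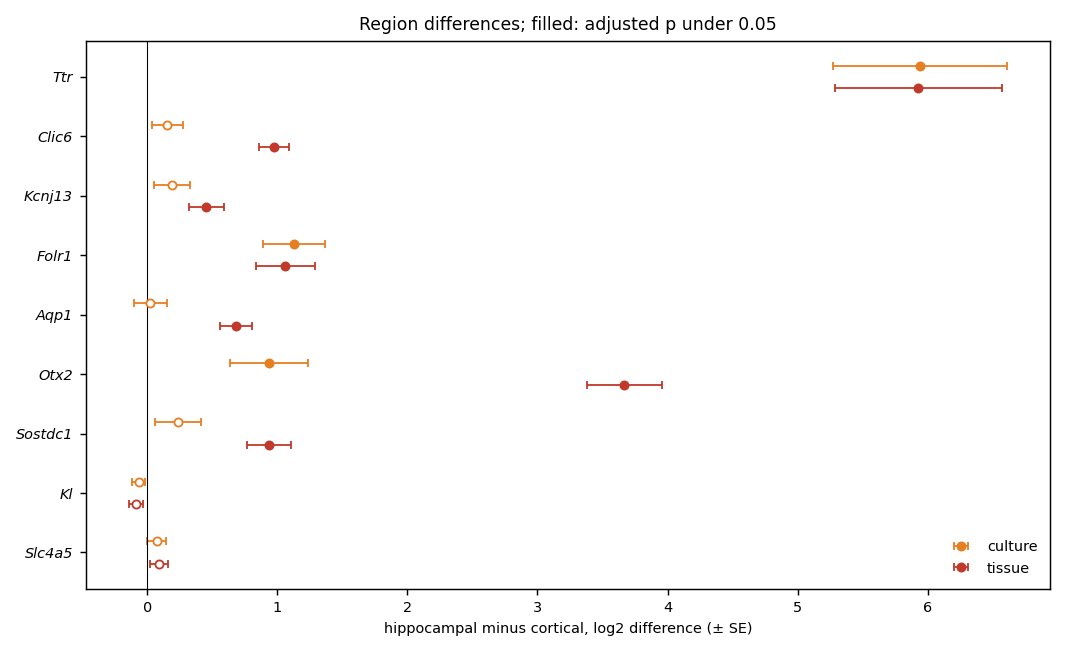
Hippocampal minus cortical difference (log2, ± SE) for each gene, culture above tissue; filled points passed an adjusted p under 0.05. The main Ttr probe set lies at 5.94 in culture and 5.93 in tissue and Otx2 at 0.94 and 3.67, with the cortical side below background for Ttr in culture and for Otx2 in both.

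Whether the region difference was equal in culture and in tissue was tested directly. It was lower in culture for 4 of 9 genes (17.1% of all genes) and higher for 0 (14.9%). The values were, for Otx2, -2.73 (SE 0.41, adjusted p = 2.53e-06), for Clic6 -0.82 (SE 0.17), for Sostdc1 -0.70 (SE 0.24, adjusted p = 0.0276) and for Aqp1 -0.66 (SE 0.18). Group means of Otx2 were above background in primary hippocampus alone, and those of Aqp1 in no group. The arrays therefore do not give the size of the change for either gene. At 2-fold or more Otx2 alone was called (5.07% of all genes). Ttr gave 0.01 (SE 0.93, adjusted p = 0.996) on its main probe set and -1.30 (SE 0.62, adjusted p = 0.121) on the second, and Folr1 gave 0.07 (SE 0.33). With the arrays WT 2644 and NT of primary cortex left out, the Ttr value was -1.41 (adjusted p = 0.0375). They were picked for their high Ttr, so this is a description and not a test. Sostdc1 was not called without cortical culture KO 2038 (adjusted p = 0.0506) or hippocampal culture KO 4236 (adjusted p = 0.0527).

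Cultures were then set against the tissue they came from, and the same tissue arrays served as in the region comparison. In hippocampal culture 4 of 9 genes were lower than in primary hippocampus and 2 were higher (36.2% of all genes lower, 35.9% higher). Otx2 ranged from 3.82 to 6.22 in hippocampal culture and from 6.75 to 8.10 in primary hippocampus, with no overlap (37.5% of all genes did not overlap), a difference of -2.21 (SE 0.29, adjusted p = 1.04e-08). Ttr differed by -1.95 (SE 0.64, adjusted p = 0.00721), Clic6 by -0.90 (SE 0.12) and Aqp1 by -0.55 (SE 0.12). The second Clic6 probe set again gave more, -2.92 (SE 0.16). At 2-fold or more, Ttr, Otx2 and Folr1 were called, 3 genes (19.4% of all genes).

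Folr1 and Sostdc1 went the other way. Folr1 was 7.75, 8.13, 7.38, 8.41 and 6.02 in KO and 7.57, 8.25, 8.97, 7.10 and 8.01 in WT hippocampal cultures. The 12 primary hippocampi gave 5.80 to 7.19, and 8 of the 10 cultures lay above all of them. The difference was 1.54 (SE 0.23, adjusted p = 1.9e-07), or 2.92-fold. Sostdc1 was higher by 0.51 (SE 0.17, adjusted p = 0.00701), with 5.85 to 7.18 in hippocampal culture and 5.63 to 7.37 in primary hippocampus. Kcnj13 differed by 0.21 (adjusted p = 0.169), and by 0.35 (adjusted p = 0.000265) without WT 2236 of primary hippocampus.

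The cortical cultures behaved alike for these 2 genes. Folr1 was 7.23, 7.89, 6.17, 6.91 and 6.17 in KO and 6.89, 6.53, 5.88, 6.84 and 5.81 in WT cortical cultures, all above the 4.45 to 5.71 of primary cortex. Folr1 and Kcnj13 did not overlap between cortical culture and primary cortex, where 37.4% of all genes did not. Folr1 was higher by 1.48 (SE 0.24, adjusted p = 1.04e-06), Sostdc1 by 1.21 (SE 0.17, adjusted p = 1.16e-07) and Kcnj13 by 0.47 (SE 0.14, adjusted p = 0.00308). Ttr gave -1.96 (SE 0.67, adjusted p = 0.00969) over all arrays. Without WT 2644 and NT of primary cortex, picked for their high Ttr, it gave -0.54 (adjusted p = 0.216). Kl was called lower too, below background on both sides. In all, 3 of 9 genes were higher and 2 lower (35.3% of all genes higher, 35.9% lower), and at 2-fold or more 3 were called, Ttr, Folr1 and Sostdc1 (18.1%). Otx2 in cortical culture fell into a high and a low set, with 5.43, 3.70, 3.95, 5.46 and 3.10 in KO and 5.86, 3.53, 3.74, 3.22 and 3.77 in WT. Its 3 cultures above background were KO 2037, KO 2620 and WT 2236. Markers of other cells moved with these preparation differences. Of 8 astrocyte markers, 6 were higher in hippocampal culture than in primary hippocampus (35.9% of all genes) and 8 in cortical culture than in primary cortex (35.3%). Of 14 endothelial markers, 10 and 9 were lower in these comparisons (36.2% and 35.9% of all genes). Their part in the values of Folr1 and Sostdc1 was not tested.

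By mean level, Ttr ran from primary hippocampus (12.08) through hippocampal culture (10.13) and primary cortex (6.15) to cortical culture (4.19). Otx2 was also highest in primary hippocampus (7.32), then in hippocampal culture (5.12), cortical culture (4.18) and primary cortex (3.65), and the last step did not pass the test (0.52, adjusted p = 0.119), except without KO 4236 of cortical culture (0.68, adjusted p = 0.0415). Folr1 was highest in hippocampal culture (7.76), then cortical culture (6.63), primary hippocampus (6.22) and primary cortex (5.15). Sostdc1 followed the same order, with 6.69, 6.45, 6.17 and 5.24, and its difference between the cultures did not pass (0.24, adjusted p = 0.356). Hippocampal culture was not compared with primary cortex, nor cortical culture with primary hippocampus.

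Arrays of one system were used to describe which genes moved with Ttr. Over the 12 arrays of primary hippocampus, after genotype means were subtracted, Ttr went with Sostdc1 (Pearson r = 0.83, permutation p = 6e-05; Spearman rho = 0.87, permutation p = 0.0005), Kcnj13 (r = 0.75, permutation p = 0.00027; rho = 0.86, permutation p = 0.00065) and Clic6 (r = 0.68, permutation p = 0.014; rho = 0.59, permutation p = 0.0485). Without the 2 arrays farthest from the median of Ttr, r was 0.75, 0.67 and 0.63. Without WT 2236 it was 0.89, 0.87 and 0.59. The same measure was -0.44 for Otx2 (permutation p = 0.152; rho = -0.38, permutation p = 0.218). Folr1 (r = 0.40, permutation p = 0.208; rho = 0.27, permutation p = 0.388) rested on WT 2236, with r = 0.0048 without it. In all, 8 such correlations were computed, two-sided and with no adjustment. Primary cortex was left out, since WT 2644 and NT form a cluster of their own.

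**Figure D5:**
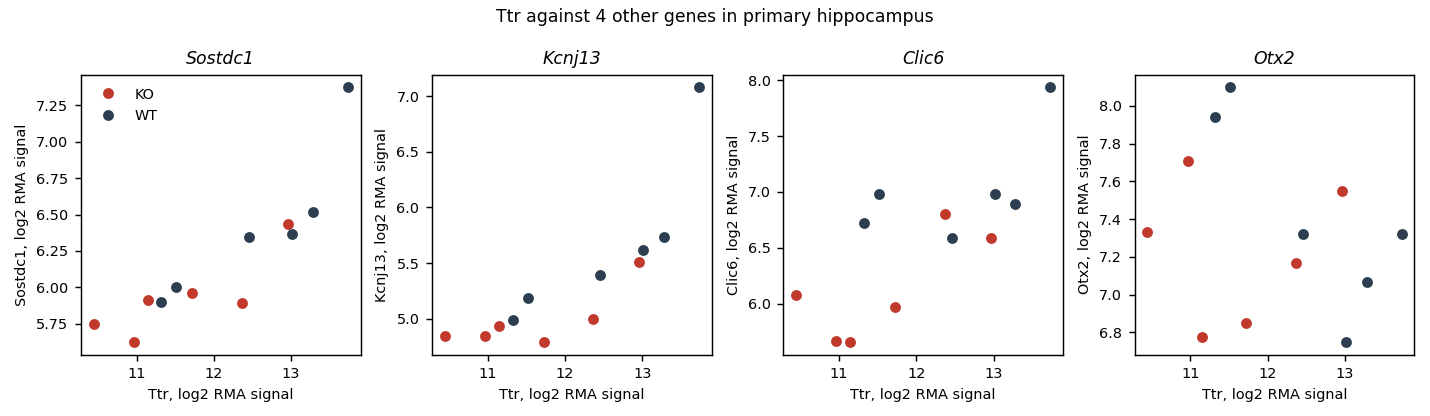
Signal (log2 RMA) of Sostdc1, Kcnj13, Clic6 and Otx2 against that of Ttr on the 12 arrays of primary hippocampus, KO in red and WT in dark blue. Sostdc1, Kcnj13 and Clic6 rise with Ttr, with WT 2236 at the top right, while the 3 highest Otx2 values lie on arrays with Ttr below 12.

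Over these 12 arrays the genes most alike to Ttr were not those of the choroid plexus group. Among 12630 genes above background, Sostdc1 ranked 49, Kcnj13 200 and Clic6 433 by Pearson r. The 8 genes ranked first were Gpr85 (r = 0.92), Prkar2b, Kctd8, Ppfia2, St6gal2, Nap1l5, Prkacb and B630019K06Rik (r = 0.89), none of them in a choroid plexus list. Over the 8 group means the first were Nrp2 (r = 0.98), Serpinb6a, Crym, Rmst, Dkk3, Maob, Lmo2 and Dmrt3 (r = 0.97). Nrp2, a semaphorin co-receptor on the list of hippocampal identity genes, was higher in hippocampal than in cortical culture by 1.78 (SE 0.19). Otx2 ranked 200 over the group means with r = 0.86. These values order the genes and carry no test.

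In hippocampal culture, 4 correlations were added after the values were seen, so their permutation p values are descriptions and not tests. Otx2 was above background on 6 of these 10 cultures, and its means were below it (5.08 in KO and 5.15 in WT). Folr1 went with Sostdc1 (r = 0.93, permutation p = 0.0001; rho = 0.83, permutation p = 0.00455) and Otx2 with Sostdc1 (r = 0.91, permutation p = 6e-05; rho = 0.89, permutation p = 0.00118) over 10 arrays. KO 4236 was the lowest culture for Folr1, Otx2 and Sostdc1, and without it r was 0.85 and 0.84. WT 2644 was the highest for the same 3 genes. Mean log2 signals of 10 neuronal markers were 11.70 on KO 4236, the highest of the 10 cultures, and 10.96 on WT 2644, the lowest. Those of 21 markers of meninges and fibroblasts were 5.06 on KO 4236, the lowest, and 5.47 on WT 2644, the highest. The part of these lists in the correlations was not tested. Folr1 went with Otx2 at r = 0.80 (permutation p = 0.00507; rho = 0.65, permutation p = 0.0475), which was 0.46 without WT 3569 and KO 4236, and so rested on them. With Ttr it gave r = 0.70 (permutation p = 0.022; rho = 0.77, permutation p = 0.0123), and 0.68 without these 2 arrays.

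A further 33 choroid plexus genes outside the group were counted beside it. In primary hippocampus 5 of 33 were lower in KO (0.945% of all genes) and none higher, with a median of -0.11. Without WT 2236, 2 of 33 were lower (1.15% of all genes). Car12, a carbonic anhydrase, was the one of the 5 above background (-0.40, SE 0.19, adjusted p = 1). By region, 15 of 33 were higher and 2 lower in primary hippocampus than in primary cortex (19.7% and 16.7% of all genes). They included Sulf1 (2.79), Calml4 (2.69), Ecrg4 (2.29) and Rdh5 (2.23). In culture, Car14, a membrane-bound carbonic anhydrase, was higher in hippocampal than in cortical cultures by 2.37 (SE 0.16). It was also higher in hippocampal culture than in primary hippocampus by 1.64 (SE 0.16), as Folr1 and Sostdc1 were. Cldn3, a tight junction claudin, gave -1.55 (SE 0.10) in the same comparison. There 15 of 33 were higher in culture and 7 lower (35.9% of all genes higher, 36.2% lower). In cortical culture against primary cortex 15 were higher and 2 lower (35.3% and 35.9% of all genes). Between the cultures 10 were higher in hippocampal culture and 2 lower (14.7% and 13.5% of all genes).

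Markers of neighbouring tissue moved with some of these results. In primary hippocampus 4 of 21 markers of meninges and fibroblasts were lower in KO (0.945% of all genes), and 4 of 21 without WT 2236 (1.15%). Col3a1, a fibrillar collagen, had a mean of 6.45 in KO and 7.58 in WT (difference -1.13, SE 0.28, adjusted p = 0.841). The summed linear signal of that list ran from 1600 to 2134 in KO hippocampi and from 1806 to 2889 in WT hippocampi. Markers of cilia and ependyma were lower in KO for 3 of 18 genes (0.945% of all genes), among them Cfap126 (-0.35) and Dynlrb2 (-0.58). Without WT 2236 this held for 1 (1.15% of all genes). None of 14 endothelial, 7 red blood cell, 8 astrocyte, 14 dorsal midline or 10 neuronal genes passed (1.54% of all genes). Between regions, 13 of 14 dorsal midline genes and 12 of 21 markers of meninges and fibroblasts were higher in primary hippocampus (19.7% of all genes). Wnt8b, a signaling protein of the cortical hem, led them (5.67, SE 0.24). The part of these lists in the differences of the choroid plexus genes was not tested. On the linear scale the 9 genes summed to 1819 to 8525 in KO hippocampi and 3125 to 14624 in WT hippocampi. Ttr, with log2 means of 11.60 in KO and 12.55 in WT, made up most of these sums and was not called.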

How the data were processed

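Total RNA (100 ng) from KO and WT hippocampal and cortical cultures and embryonic tissue had been hybridized to 42 Affymetrix Mouse Genome arrays. The authors deposited log2 values made with RMA (background correction, quantile normalization and a summary per probe set), which compresses differences of dim probe sets. These were used as given, and 0 columns were left out. After 64 control probe sets were removed, 45037 were tested, of which 34945 carried 1 gene, 932 several and 9160 none in the platform annotation. Positions and promoters are from RefSeq (GRCm38.p6).

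Arrays were grouped by system and genotype as labelled. limma 3.58.1 in R 4.3.3 was fitted to the 8 group means of all arrays, with eBayes (34 residual degrees of freedom). The threshold for KO against WT was an unadjusted p under 0.05, which the study used, and for regions and preparations a Benjamini-Hochberg adjusted p under 0.05. Correlations used 100000 permutations. The fit was tested on simulated data. Precision is set by the number of arrays. The labels do not say whether different mouse IDs stand for separate litters, so p values measure the spread between these arrays.

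The 10 genes and all lists were chosen with earlier results of these data known. Named beside them are Fmr1, up to 4 genes per list with the smallest adjusted p above background, and the 8 genes most alike to Ttr. Mouse IDs recurred across systems, never in both KO and WT. The main fit did not use this pairing, which entered only as an alternative. Deviations from group means of same-ID arrays correlated at 0.32 on average between primary cortex and primary hippocampus and at 0.24 between the cultures, and at 0.01 to 0.04 between a culture and a tissue. Alternatives covered the threshold, normalization, variance model, array weights, background filter, probe set, mouse ID as a block and each array left out. Leaving out WT 2644 and NT of primary cortex was added after the data were seen. These arrays were picked for their high Ttr, so Ttr calls without them are descriptions and not tests.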

Additional observations from a re-analysis of the deposited data

Results flagged for a closer look

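Of 72 groups of arrays, 8 held an array far from the others, where chance alone marks about 1 group in 20. In primary hippocampus, WT 2236 was far above the other 5 WT arrays for Clic6 (7.94, next 6.98), Kcnj13 (7.08, next 5.73), Folr1 (7.19, next 6.38) and Aqp1 (6.45, next 5.13). KO 2037 of primary hippocampus was far above the other KO arrays for Kcnj13 (5.51, next 5.0). In cortical culture, WT 2236 was high for Otx2 (5.86, next 3.77) and KO 4236 was low for Aqp1 (4.18, next 4.30), a gene below background there. In hippocampal culture, KO 4236 was low for Sostdc1 (5.85, next 6.74).

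The region difference was unequal between culture and tissue for 4 genes by the interaction test, each smaller in culture: Otx2 (-2.73, SE 0.41), Clic6 (-0.82, SE 0.17), Sostdc1 (-0.70, SE 0.24) and Aqp1 (-0.66, SE 0.18). Group means of Otx2 were above background in primary hippocampus alone, and those of Aqp1 in no group. Sostdc1 was not called without cortical culture KO 2038 or hippocampal culture KO 4236.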

How the results depend on the processing

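The counts given are those of 9 genes. In primary hippocampus 4 were lower in KO, with 1 at an adjusted p under 0.05 and 2 to 6 when each array was left out (2 without WT 2236, 6 without WT NT). In a fit of primary hippocampus alone, Aqp1 was not called and Folr1 was. In primary cortex 0 were called, with 1 under array weights (Ttr, -2.04). With each array left out 0 to 1 were called (1, Ttr, without KO 2620, WT 2236, WT 2643 or WT 3569). Without both WT 2644 and NT, left out for their high Ttr, 1 was called (Ttr, 1.22, higher in KO). At 2-fold or more, 3 of 7 remained for hippocampal against cortical tissue, 3 of 6 for hippocampal culture against tissue, 3 of 5 for cortical culture against tissue and 1 of 4 for the region difference between culture and tissue. For cortical culture against tissue, 3 genes were called without WT 2644 and NT of primary cortex, and 4 to 6 with each array left out. The region difference of Ttr in culture minus that in tissue (0.01) changed sign in several settings, and was called only without WT 2644 and NT. It was -0.0026 with mouse ID as a random replicate block, -0.16 with mouse ID as a fixed replicate block, -1.30 with the probe set of smallest p and -1.41 without WT 2644 and NT, and ran from -0.62 to 0.39 with each array left out. That of Folr1 (0.07) was -0.0475 without WT 2644 and NT and -0.0585 to 0.26 with each array left out. Ttr in hippocampal culture, KO minus WT, ran from -0.34 to 0.29 with each array left out. The correlation of Ttr with Kl, below background, was 0.0179 without subtraction of genotype means, and those with Folr1 (0.57) and Aqp1 (0.60) then passed an unadjusted p under 0.05. With mouse ID as a random replicate block no call on the 9 genes changed. The fixed block was fitted on the 10 IDs of all 4 systems, for region and preparation comparisons alone, and changed no call there. KO against WT was not fitted with a fixed block. Filtering to probe sets above background removed Aqp1, Kl and Slc4a5. Signals near background, above all Kl, Slc4a5 and Aqp1, limit what these arrays can show.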
